A study of Drosophila melanogaster with 6 samples.

Results

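A small set of probe sets gave a low signal in all control arrays and a clear one in all arrays of jumu overexpression. A probe set is a group of array probes read together for one transcript or gene. Members had a deposited log2 signal under 6 in all 3 control arrays and of 7 or more in all 3 UAS-jumu arrays. Of 18769 probe sets, 32 met these thresholds, and 7 of them belonged to 6 genes that were set aside beforehand (hlk, CG31606, CG14273, CG7778, Snoo and Hml). The remaining 25 probe sets are described here: 21 were paired with 19 genes, of 11983 genes measured, and 4 had no gene symbol in the annotation used. The members were chosen by the deposited signals of these same 6 arrays, so their levels are a description and carry no test.

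Both genotypes of Drosophila melanogaster carried twi-GAL4 and UAS-2EGFP, so that the twist driver marked mesodermal cells with GFP. Embryos were kept at 29 °C until late stage 11 or early stage 12, and their GFP-positive cells were isolated by sorting. The UAS-jumu group also carried a UAS-jumu transgene under the same driver, and the control group is labelled with the driver and reporter alone, with no other transgene named in its place. Each group had 3 arrays. The replicates are numbered without a statement that they came from separate embryo collections, so their spread may be technical.

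Jumu is a forkhead transcription factor, a protein whose winged-helix domain binds DNA, and it is known in the fly for work in heart progenitor division and in blood and nervous system development. A GAL4 driver makes such a factor at high level throughout the driver's cells, including cells that would not normally make it. A gene that is off in a tissue gives an array signal near background, where the log2 value mostly follows noise and nonspecific binding.

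The overexpressed transcript was well above its control level. The jumu probe set had deposited log2 signals of 13.57, 13.31 and 13.61 with UAS-jumu, against 11.33, 11.55 and 11.43 without it, with no overlap. The log2 change in limma after quantile normalization was 2.11 ± 0.14 (SE, adjusted p = 0.0165). That call was lost when any 1 array was left out, with log2 changes of 2.05 to 2.23. The sorted cells carried mesodermal transcripts in both groups: all 12 measured mesoderm markers had a log2 signal of 6 or more in every array, with twi at 10.01, 9.96 and 9.77 against 9.23, 9.45 and 8.88. That level was also reached by 13 of 15 nervous system, 7 of 9 epidermis and trachea and 8 of 11 blood cell markers. The neuronal gene elav read 13.34, 13.36 and 13.34 in controls. The level alone therefore does not set mesoderm apart from other cell types.

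The word silent goes further than the control values allow. No detection calls came with the values used here, and 9565 probe sets (51.0%) were under 6 in all 3 controls. Control arrays scattered widely at that level: the median SD between replicates was 1.09 for probe sets with a control mean from 3 to 6, against 0.211 from 7 to 8. All 25 members had a larger SD in the controls than in the UAS-jumu arrays, and in 13 the controls spanned more than 2 log2 units. A control mean is therefore given without a fold change, and the UAS-jumu mean is set against the threshold of 6 as a lower bound on the difference. Over the members that bound ran from 1.15 to 4.36 log2 units, with a median of 2.32.

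**Figure D1:**
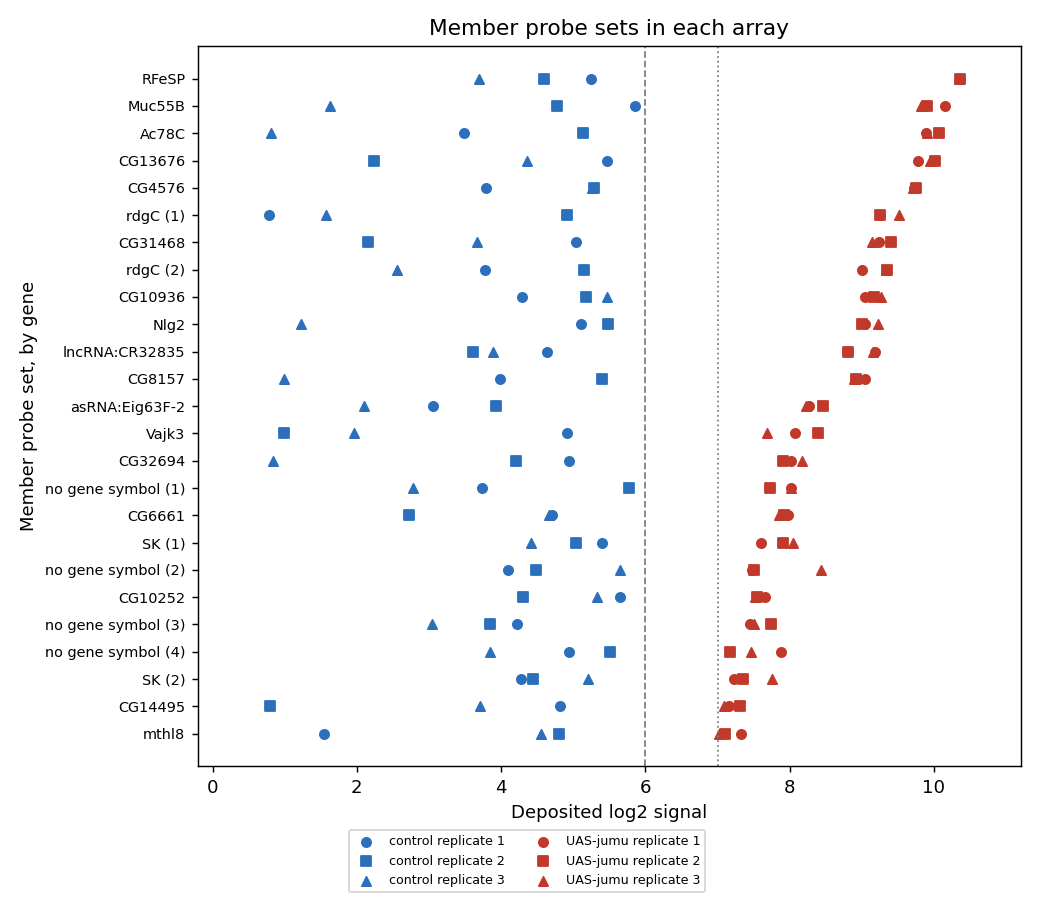
Deposited log2 signal (x axis) of each of the 25 member probe sets (y axis) in the 3 control arrays (blue) and the 3 UAS-jumu arrays (red), with marker shape giving the replicate, a dashed line at 6 and a dotted line at 7. The UAS-jumu arrays lie close together, within 0.5 log2 units for 21 members, while the control values scatter below 6.

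The brightest member belonged to RFeSP, which encodes the Rieske iron-sulfur protein of respiratory complex III. Its member probe set had log2 signals of 10.36, 10.36 and 10.35 with UAS-jumu, against 5.24, 4.59 and 3.70 in controls. The 3 UAS-jumu arrays were nearly identical (SD 0.00533, n = 3), and their mean was higher than that of 86.3% of all probe sets. A second RFeSP probe set differed from it, with 11.40, 11.05 and 11.10 against 11.12, 11.11 and 11.12. On that probe set the groups overlapped and the log2 change in limma was 0.04 ± 0.13 (SE, adjusted p = 0.915). RFeSP as a gene was thus bright in the controls, and only 1 of its 2 probe sets was low there. Which transcripts each probe set reads was not tested.

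Signalling enzymes made up a second group. Ac78C encodes an adenylyl cyclase, which makes the messenger cAMP from ATP. It had log2 signals of 9.89, 10.07 and 9.90 with UAS-jumu and 3.49, 5.13 and 0.81 in the controls. The UAS-jumu mean lay 3.96 above the threshold of 6, while the controls spread over more than 4 units. The gene rdgC encodes a calcium-regulated protein phosphatase that acts on rhodopsin in photoreceptors. One of its probe sets read 9.26, 9.25 and 9.52 against 0.79, 4.91 and 1.57. The other read 8.9999, 9.35 and 9.34 against 3.78, 5.15 and 2.56. Both rdgC probe sets were therefore members, and rdgC was the only gene with several probe sets of which every one met the rule.

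Genes of membrane excitability and synaptic contact formed another group. Nlg2 encodes a neuroligin, an adhesion protein of the postsynaptic membrane. Its member probe set had 9.05, 8.997 and 9.22 with UAS-jumu and 5.10, 5.49 and 1.22 in controls. Neither of the other Nlg2 probe sets reached 6 in any array: one read 5.11, 4.70 and 5.25 against 1.86, 3.12 and 3.96, and the other stayed between 1.36 and 2.00 in all 6 arrays. The first of these had the UAS-jumu arrays above the controls, as the member had, and in the second the groups overlapped.

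SK encodes a small-conductance potassium channel opened by calcium. A pair of its 4 probe sets were members. The brighter read 7.60, 7.90 and 8.05 against 5.40, 5.04 and 4.41, and the dimmer 7.23, 7.35 and 7.76 against 4.27, 4.45 and 5.20. These were the lowest control SDs of the 25 members, at 0.499 and 0.495 (n = 3). The 2 other SK probe sets were under 6 in every array, and their groups overlapped. The last receptor gene, mthl8, belongs to the methuselah-like family of G protein-coupled receptors. It lay just above the threshold, at 7.33, 7.10 and 7.02 against 1.55, 4.80 and 4.55. Its second probe set missed the rule, with 6.13, 6.56 and 6.68 against 4.64, 0.99 and 1.77, and did not overlap between groups either.

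**Figure D2:**
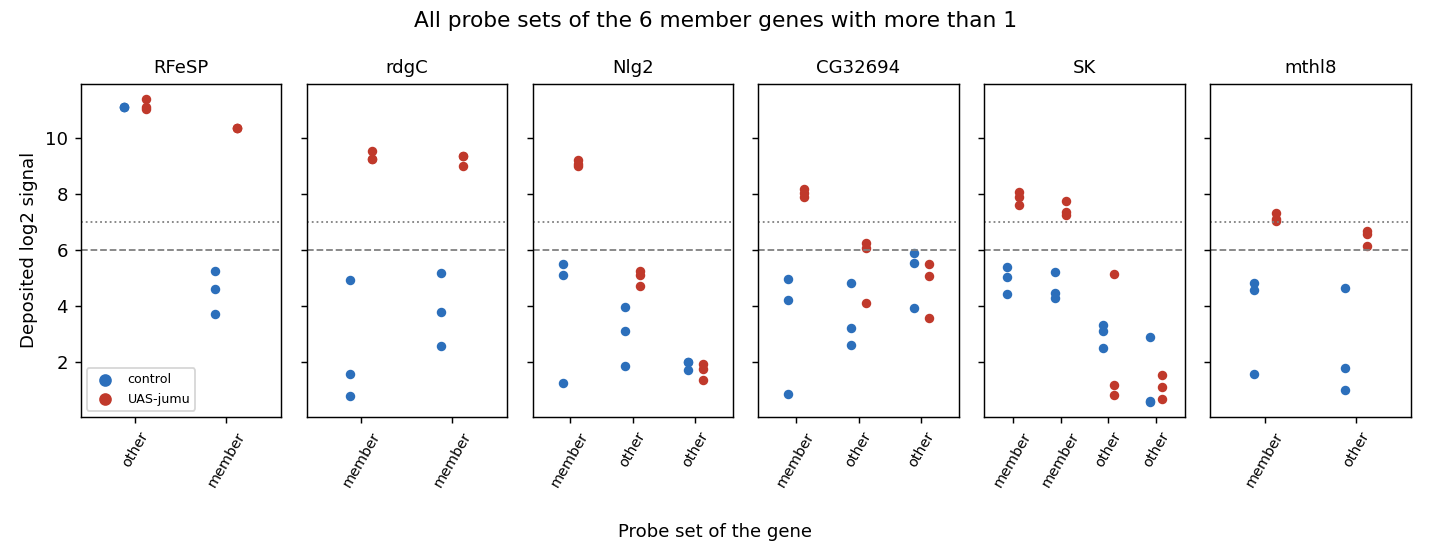
Deposited log2 signal (y axis) of every probe set of the 6 member genes that have more than 1 (x axis, member or other), with controls in blue, UAS-jumu arrays in red, a dashed line at 6 and a dotted line at 7. RFeSP has a second probe set at about 11.1 in both groups, both rdgC probe sets are members, and of the 8 other probe sets 5 are under 6 in all arrays.

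Secreted and structural products were represented by Muc55B and Vajk3. Muc55B encodes a mucin, a heavily glycosylated protein of surfaces and secretions. It was the second brightest member, at 10.15, 9.90 and 9.82 with UAS-jumu, and its controls read 5.86, 4.78 and 1.63. The control value of 5.86 in replicate 1 was the highest control value of any member. Vajk3 had 8.08, 8.40 and 7.68 against 4.92, 1.00 and 1.96, with a wide spread in both groups. The gene CG6661, predicted to encode an aldehyde dehydrogenase, read 7.98, 7.92 and 7.85 against 4.71, 2.73 and 4.66.

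The set also held 2 noncoding RNA genes among its 19. The antisense RNA asRNA:Eig63F-2, from a locus known for its response to the steroid hormone ecdysone, had 8.27, 8.47 and 8.22 with UAS-jumu and 3.06, 3.92 and 2.10 in controls. The long noncoding RNA lncRNA:CR32835 had 9.19, 8.80 and 9.15 against 4.64, 3.61 and 3.89. Its control SD of 0.531 was low for that level.

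The remaining named members are protein-coding genes known by identifiers. CG13676 had 9.78, 10.02 and 9.94 against 5.46, 2.24 and 4.36. CG4576 had 9.72, 9.75 and 9.71 against 3.79, 5.28 and 5.26. CG31468 had 9.23, 9.40 and 9.14 against 5.04, 2.15 and 3.66. All 3 of these genes were above 9 in every UAS-jumu array. CG10936 had 9.04, 9.17 and 9.27 against 4.29, 5.18 and 5.47. CG8157 had 9.05, 8.92 and 8.89 against 3.99, 5.39 and 0.99. CG32694, one of whose 3 probe sets was a member, had 8.01, 7.90 and 8.17 against 4.95, 4.21 and 0.84. The groups overlapped in its other probe sets. These read 6.24, 6.06 and 4.10 against 4.82, 3.19 and 2.60, and 5.06, 3.55 and 5.48 against 5.54, 5.89 and 3.93. In the member probe sets of CG8157 and CG32694 it was control replicate 3 that lay far below the other controls, whereas in CG10936 it was the highest. Dimmer still were CG10252, at 7.66, 7.55 and 7.52 against 5.64, 4.30 and 5.33, and CG14495, at 7.15, 7.31 and 7.08 against 4.82, 0.80 and 3.71. The 4 probe sets without a gene symbol had UAS-jumu means of 7.504 to 7.92 and control means of 3.70 to 4.76.

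The members thus fell into 11 probe sets with a UAS-jumu mean of 9 or more, 4 from 8 to under 9 and 10 from 7 to under 8. Their UAS-jumu means stood between the 63.0 and the 86.3 percentile of all probe sets. The groups of every member are apart by construction; over all probe sets the UAS-jumu arrays lay above the controls without overlap in 13.1%. Just inside the thresholds, the lowest UAS-jumu value was 7.02 for mthl8 and 7.08 for CG14495, and the highest control value was 5.86 for Muc55B. Just outside, ouib had a lowest UAS-jumu value of 6.99, and CG43394 and lncRNA:CR43337 had highest control values of 6.04 and 6.05.

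The opposite pattern was rarer. A signal under 6 in all UAS-jumu arrays and of 7 or more in all controls was found in 3 probe sets, those of stai, Agps and Ets65A. That is 0.0294% of the 10194 probe sets low in all UAS-jumu arrays, against 0.335% of the 9565 low in all controls for the rule itself before genes were set aside. Array medians of the deposited log2 signal were 5.09 to 5.43 in the UAS-jumu group and 5.38 to 5.64 in the controls, and among the 9565 control-low probe sets 2.92 to 3.37 and 3.21 to 3.66. These medians lie under 6, below the members' UAS-jumu levels. A shift of whole arrays at the members' UAS-jumu levels was not tested. The members' medians by array were 8.27 to 8.47 with UAS-jumu and 3.70 to 4.64 in controls, lowest in control replicate 3, which held the lowest control value of 12 of the 25.

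**Figure D3:**
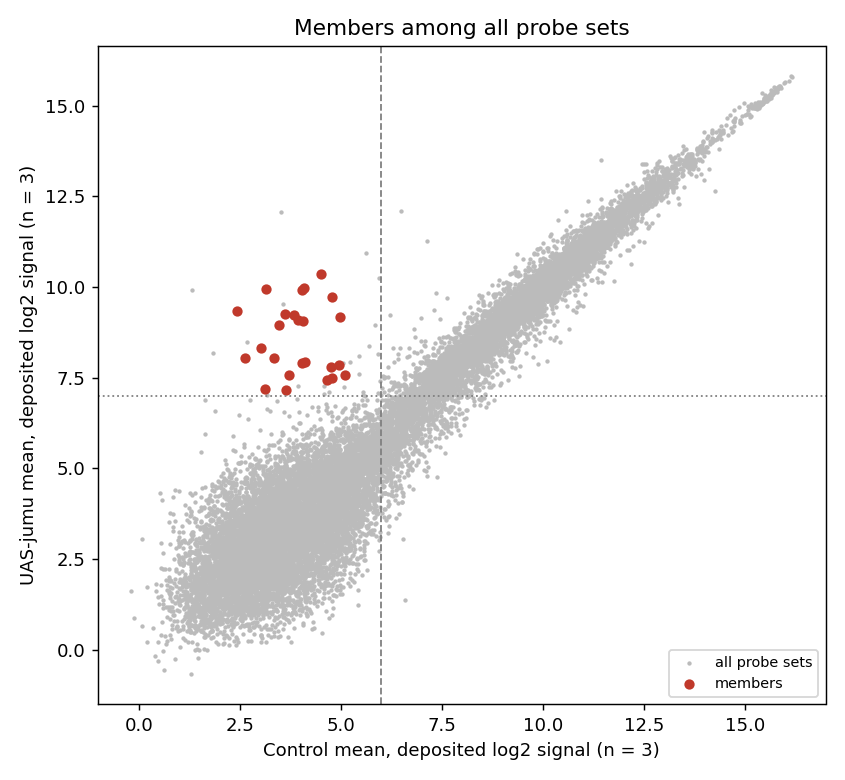
Mean deposited log2 signal of the 3 UAS-jumu arrays (y axis) against that of the 3 control arrays (x axis) for all 18769 probe sets (grey) and the 25 members (red), with a dashed line at 6 and a dotted line at 7. The members lie above the broad cloud of low signals, at UAS-jumu means of 7.15 to 10.36.

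In limma, 13 of the 25 members were past the adjusted threshold of 0.05 in the upward direction, where 1.36% of all probe sets were higher, 1.41% lower and 2.77% called in either direction. Since the rule used the same values, nothing is read from that count. The count was 25 with an intensity trend in the variance prior, 4 with median centring, 0 with the replicate number as a block, and 0 to 7 when 1 array was left out.

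Related genes were mostly not called. Among 13 other measured genes of adenylyl cyclase and cAMP signalling, 1 rose and 0 fell, where 1.61% of all genes rose and 1.71% fell. That gene, rut, encodes the calcium-stimulated adenylyl cyclase known from learning mutants. It read 8.39, 7.93 and 7.98 with UAS-jumu and 6.51, 6.66 and 6.85 in controls, without overlap, and rose by 1.51 ± 0.19 (SE, adjusted p = 0.0367). At an unadjusted p under 0.05 the list had 2 genes higher and 0 lower, where 10.8% of all genes were higher and 11.7% lower. The list's median log2 change was 0.00, and -0.01 over all genes. The call of rut was lost with median centring and without any 1 array (adjusted p 0.0917 to 0.129).

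Beside rdgC, 18 other genes of phototransduction and retinal degeneration were measured, and 0 rose and 0 fell in limma. Over all genes 1.61% rose and 1.71% fell, so 0 calls among 18 is near those shares. At an unadjusted p under 0.05 the list had 0 genes, where 10.8% of all genes were higher and 11.7% lower. Its median change was -0.13, and 9 of the 18 were under 6 in every array. For the ecdysone-induced genes beside asRNA:Eig63F-2, 0 of 18 rose and 0 fell, where limma's unadjusted p was under 0.05 for 2 higher and 1 lower, and the median change was 0.02. These counts stand beside the same shares over all genes.

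Families of 5 further members were listed once the members were known. For respiratory complex III, 0 of 9 other measured genes rose, and Cyt-c1L, a gene similar to that of the cytochrome c1 subunit, fell by 1.03 ± 0.14 (SE, adjusted p = 0.0395). It read 7.24, 7.27 and 7.40 with UAS-jumu against 8.18, 8.36 and 8.56. That call was lost with median centring (adjusted p = 0.255) and without any 1 array (adjusted p 0.0961 to 0.148). At an unadjusted p under 0.05 the family had 0 genes higher and 4 lower. The complex III median was -0.29, and the second RFeSP probe set changed by 0.04. Among 4 other neuroligin and neurexin genes, 14 methuselah-like receptor genes, 3 Vajk genes and 14 potassium channel genes, 0 rose and 0 fell in limma. At an unadjusted p under 0.05 these 4 families had 1 gene higher and 1 lower, both methuselah-like. Among all genes 10.8% were higher and 11.7% lower at that level, and 1.61% rose and 1.71% fell.

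A pair of members lay side by side on the chromosome. Muc55B and CG14495 are direct neighbours in the RefSeq gene order (Release 6 assembly), and the measured gene on the far side of Muc55B, CG10911, was also higher. It read 3.86, 4.41 and 4.54 against 1.01, 2.30 and 0.61, without overlap but under 6 in every array, so no size is given (adjusted p = 0.0431 in limma). Its call was lost without the quantile step (adjusted p = 0.0585), with median centring (adjusted p = 0.103) and when any 1 array was left out. CG5767, on the other side, read 4.87, 5.67 and 5.42 against 2.08, 3.03 and 3.01 and did not pass (adjusted p = 0.0507); it is named after its values were seen. CG34005, which lies between CG5767 and CG14495, had overlapping groups, at 2.60, 2.46 and 4.76 against 4.67, 5.37 and 2.75. The groups of CG5770 and CG5773, farther out, overlapped as well, and so did those of CG10912, beyond CG10911.

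CG10252 and CG31468 formed a second close pair with 1 gene, prt, between them. The transporter gene prt read 5.40, 4.97 and 1.73 against 4.26, 0.73 and 2.87, and its groups overlapped. CG10254, the next measured gene beyond CG10252, read 9.60, 9.72 and 9.58 against 9.47, 9.59 and 9.62, with overlapping groups. CG18754, farther out on that side, fell by 1.10 ± 0.10 (SE, adjusted p = 0.0244 in limma), from 12.10, 12.10 and 12.06 in controls to 11.05, 10.92 and 11.06. Between CG10254 and CG18754 lies SPE, which read 6.04, 5.08 and 6.02 against 6.88, 6.98 and 7.28. Its groups did not overlap, but it did not pass (adjusted p = 0.14 in limma). CG18754 and SPE are named after their values were seen.

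**Figure D4:**
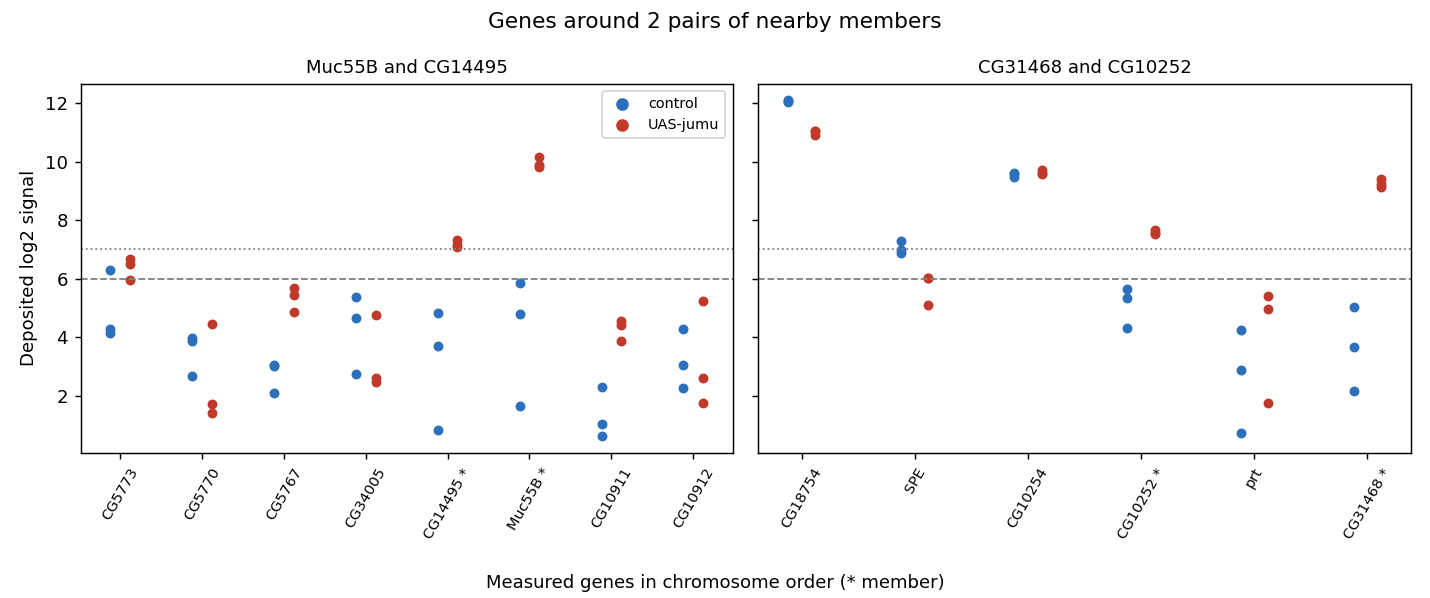
Deposited log2 signal (y axis) of the measured genes in chromosome order (x axis, not to distance) around Muc55B with CG14495 and around CG31468 with CG10252, with controls in blue, UAS-jumu arrays in red, members marked by an asterisk, a dashed line at 6 and a dotted line at 7. CG10911 is higher with UAS-jumu although under 6, whereas CG34005 and prt overlap between groups.

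Genes next to the members were measured as well. The nearest measured gene on each side that was neither a member nor set aside gave 34 neighbour genes. Of these 1 rose (CG10911) and 1 fell (chinmo), beside 1.61% and 1.71% of all genes. The gene chinmo, a transcription factor gene near RFeSP, read 8.88, 8.69 and 8.995 with UAS-jumu and 9.95, 9.93 and 9.62 in controls, and fell by 1.01 ± 0.15 (SE, adjusted p = 0.0482), a call lost without any 1 array. Among the neighbours, an unadjusted p under 0.05 in limma was found for 5 higher and 5 lower genes. Over all genes 10.8% were higher and 11.7% lower at that level. The neighbours' median log2 change was -0.17, beside -0.01 over all genes, with 15 of 34 positive. Of these neighbours 13 were under 6 in every array, where a change is not sized. By chromosome arm, 6 member genes lay on 3L, 5 on 2R, 3 each on 2L and 3R, and 2 on X. The measured genes divide among these arms as 19.7%, 20.4%, 18.5%, 25.0% and 15.7%.

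Markers of other cell types moved in these arrays as well, and their part in the members' levels was not tested. In bulk samples such as these, a change in the share of a cell type and a change of RNA per cell cannot be told apart. Of 15 measured nervous system markers 7 fell (elav, fne, nerfin-1, repo, Appl, SoxN and insb) and 0 rose. The list's mean log2 signal was 9.27 to 9.32 with UAS-jumu and 9.87 to 9.99 in controls. Of 9 epidermis and trachea markers 3 fell (grh, kni and pyr) and 0 rose (7.85 to 7.96 against 8.33 to 8.91), and of 12 differentiated muscle markers 3 fell (TpnC73F, Mlp60A and Argk1) and 0 rose (9.44 to 9.49 against 9.99 to 10.04). Of 12 mesoderm markers 3 rose and 0 fell (10.86 to 10.92 against 10.41 to 10.45): htl, an FGF receptor gene, by 1.03 ± 0.11 (SE, adjusted p = 0.0307), and the myoblast genes sns and lmd by 0.94 and 0.70. Of the 24 genes called over all lists but those added later, LysX alone passed with median centring, and 0 to 1 passed when any 1 array was left out. At an unadjusted p under 0.05, 1 nervous system marker was higher and 10 lower, 0 and 5 of epidermis and trachea, 0 and 8 of differentiated muscle, 9 and 1 of mesoderm, 0 and 2 of endoderm, and 3 and 1 of germ line. The shares over all genes at that level were 10.8% higher and 11.7% lower, while 1.61% rose and 1.71% fell.

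Blood cell markers gave 2 falls (PPO1 and Pxn) and 0 rises among 11 measured genes other than Hml and He (10.25 to 10.35 against 9.99 to 10.05). These list means include NimC1, at 6.61, 6.18 and 5.66 against 5.07, 1.66 and 4.70. They also include eater, at 4.26, 4.17 and 5.34 against 1.63, 4.18 and 2.60. Both genes had controls under 6, so the list means do not size a change. At an unadjusted p under 0.05 the blood list had 3 genes higher (srp, ush and eater, with log2 changes of 0.51 for srp and 0.50 for ush, and eater under 6 in every array) and 3 lower, and 7 of the 11 changes were positive. Endoderm markers gave 1 fall (hkb) and 0 rises among 7 (7.05 to 7.52 against 7.32 to 7.84), and germ line markers 1 rise (bam) and 0 falls among 8 (7.81 to 8.03 against 7.42 to 7.86). Of 6 fat body markers 0 rose and 0 fell in limma, where 1 higher and 0 lower genes had an unadjusted p under 0.05 (6.86 to 7.86 against 7.33 to 8.11). Testis genes of meiosis and sperm gave 0 of 29 in either direction, where 3 higher and 2 lower genes had an unadjusted p under 0.05 in limma, and 22 of them were under 6 in every array. Of 26 genes of chitin and the peritrophic matrix, which lines the gut, 1 fell and 0 rose, that gene being Cda4, under 6 in its means of both groups. At an unadjusted p under 0.05 the chitin list had 1 gene higher and 8 lower, with a median change of -0.54. In that list 12 of the 26 genes were under 6 in every array. For these lists too, the shares over all genes at that level were 10.8% higher and 11.7% lower.

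Of 3 measured genes of lysozymes, which cut bacterial cell walls, LysX and LysS rose and 0 fell, beside 1.61% and 1.71% of all genes. Lysozymes, adenylyl cyclases and phototransduction genes were listed as families already known to be among the rises in these data. The lysozyme count is therefore a description and carries no test. LysX read 7.02, 6.82 and 6.83 with UAS-jumu and 1.504, 1.20 and 2.21 in controls (adjusted p = 0.0191), and missed the upper threshold in 2 arrays. LysS stayed under 6 in both groups, at 5.33, 4.90 and 5.10 against 2.34, 1.497 and 2.64 (adjusted p = 0.0383). LysX kept its call with median centring and without control replicate 3, and lost it when any other single array was left out.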

How the data were processed

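RNA from sorted cells was measured on 6 single-colour arrays, 3 per genotype, grouped by sample title. The deposited values are log2 signals per probe set; per the submitters' processing notes the authors used the Bioconductor package affy, and no version is listed. Background correction, normalization and probe summary: not given in the sources used here. Their range served to infer the log base.

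Of 18952 probe sets, 183 Affymetrix controls were left out. In the platform annotation 13647 probe sets had 1 gene, 402 several and 4720 none; 13544 of the first were matched to RefSeq symbols. A listed or neighbouring gene stands by its brightest probe set (11983 genes). Gene order came from the RefSeq table of Release 6, without coordinates, since the values carry no build.

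Member levels are deposited values. Tests used limma 3.58.1 in R 4.3.3 (lmFit, eBayes, two-sided, no covariates) after quantile normalization between arrays. Benjamini-Hochberg adjustment ran over 18769 probe sets, with a threshold of 0.05. "Rose" and "fell" mean past that threshold. The fit was also run on simulated data with changes planted only in bright probe sets, so recovery of changes in dim ones was not tested. The number of arrays limits the precision. Alternatives were the deposited scaling, median centring, a filter on dim probe sets, an intensity trend, the replicate number as a block, each array left out, and other member thresholds. Same-numbered arrays did not deviate together. Members, lists and tests were chosen with earlier results of these data known. Genes named are the members, those at the thresholds, listed or neighbouring genes past the threshold, jumu and htl; a few others were chosen after their values were seen.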

Additional observations from a re-analysis of the deposited data

How the results depend on the processing

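The rule gave 25 members on the deposited values, 28 after quantile normalization, 31 after median centring and 26 to 29 when 1 array was left out. Leaving out an array only loosens the rule, so the 25 remain in it by construction. Other thresholds moved the number: 3 probe sets with controls under 5 and UAS-jumu of 8 or more, 75 with both thresholds at 6, 20 with controls under 7 and UAS-jumu of 8 or more, and 8 with UAS-jumu of 9 or more, a setting chosen after seeing the data.

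Limma calls depended strongly on the setting. Called probe sets numbered 519 (255 higher, 264 lower), 20 with median centring (20 higher, 0 lower), 2930 with the filter at a mean of 6, 3096 with the intensity trend, 0 with the replicate number as a block, and 0 to 21 without 1 array. Neighbour genes numbered 2, and 0, 6, 7, 0 and 0 to 0 in the same order; genes of the lists fixed first numbered 24, and 1, 56, 54, 0 and 0 to 1. The log2 change of jumu was 2.11, 2.33 with median centring (adjusted p = 0.06), 2.11 with the replicate block (adjusted p = 0.238) and 2.05 to 2.23 without 1 array (adjusted p 0.0628 to 0.104). The jumu call in limma was kept without the quantile step (adjusted p = 0.0206), with the filter (adjusted p = 0.00024) and with the intensity trend (adjusted p = 8.6e-13). A block on the number leaves fewer degrees of freedom. The deviations of same-numbered arrays had correlations of -0.08, 0.04 and 0.03 over 4758 bright probe sets, so the numbers were not taken to pair the arrays. The cause of the shifts between settings, that with the block included, was not tested. Below a log2 signal of 6 the arrays differ too widely to size a change.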
